A study of Mus musculus with 1187 samples.

Results

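The 7 genes described here make up the core of antigen presentation by major histocompatibility complex (MHC) class I and class II molecules, measured in single brain endothelial cells. They were chosen by name from the 46517 genes of the count table and their counts were followed cell by cell and plate by plate. For class I they are B2m, H2-D1, H2-K1 and Tap1, and for class II they are Cd74, H2-Aa and H2-Ab1. All 7 had a row in the table.

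Class I molecules stand on nearly every nucleated cell and show peptides of the cell's own proteins to CD8+ T cells. A class I molecule is a heavy chain, here from H2-K1 or H2-D1, bound to the light chain beta-2 microglobulin from B2m, and Tap1 encodes a subunit of the transporter that brings peptides into the endoplasmic reticulum to be loaded. Class II molecules, pairs of an alpha chain (H2-Aa) and a beta chain (H2-Ab1) escorted by the invariant chain (Cd74), are best known from dendritic cells, B cells and macrophages, where they present peptides of engulfed proteins to CD4+ T cells. In other cells, endothelium included, class II genes can be switched on by interferon gamma through the regulator encoded by Ciita.

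The cells came from brains of C57BL/6 mice, described as adult and as 3 months old, that carried the Pdgfb ret allele and were crossed with the Cldn5-GFP and Cspg4-DsRed reporter lines. The labels name 590 cells of genotype Pdgfb ret/+ and 597 of genotype Pdgfb ret/ret, whose loss of the PDGF-B retention motif leaves the brain vessels short of pericytes; the allele is carried by all cells of the animal and not by endothelium alone. Cells positive for GFP, a mark of endothelium, and negative for DsRed, a mark of pericytes and related cells, were sorted singly and turned into full-length cDNA by Smart-seq2. No label names an animal, and the table's columns carry a plate and a well while the labels number the cells, so no column could be given a genotype. The study set pericyte-deficient against control endothelium; that comparison was not made here, all 1187 cells are treated as 1 pooled sample, and without a second sample there is no test. Plate may coincide with genotype or animal, and these cannot be told apart.

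Plates 521, 522, 523 and 524 held 300, 290, 285 and 312 cells. A cell had between 100779 and 584112 reads with a median of 360947, and the median number of genes with a read was 5119, 4638, 4048 and 4345 on the 4 plates in that order. Cldn5, the tight junction gene that drives the reporter, stood at 4178, 4254, 3972 and 3766 CPM (reads of a gene per megaread of the summed cells) on the plates, and Pecam1, an endothelial adhesion molecule, at 1183, 1263, 1218 and 1209 CPM. All 1187 cells had a Cldn5 read. Ptprc, which encodes the leukocyte surface protein CD45, stood at 0.0923, 2.51, 1.27 and 2.91 CPM.

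The promoters of the members are shown first because class I and class II genes are known to share promoter elements. RefSeq promoters on GRCm38.p6, running from 250 bases before to 50 bases after the annotated start, were matched for 5 of the 7 members. They lie at chr2:122147437-122147736 on the plus strand for B2m, chr17:35262844-35263143 plus for H2-D1, chr17:34000298-34000597 minus for H2-K1, chr17:34187306-34187605 plus for Tap1 and chr17:34287774-34288073 minus for H2-Aa. Each is written 5′ to 3′ along its gene. Capitals mark matches, on either strand, to a long and a short core of the interferon response element (the short one is GAANNGAAA), GGGNATTCC (the kappa B site of the class I enhancer), TGACG (the core of the X2 box) and ATTGG (the Y box).
B2m: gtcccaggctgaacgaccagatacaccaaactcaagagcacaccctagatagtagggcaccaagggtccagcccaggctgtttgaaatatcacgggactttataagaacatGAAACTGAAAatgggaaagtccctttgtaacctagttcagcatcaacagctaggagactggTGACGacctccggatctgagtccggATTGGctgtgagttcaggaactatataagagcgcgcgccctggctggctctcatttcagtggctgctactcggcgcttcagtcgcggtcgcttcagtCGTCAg
H2-D1: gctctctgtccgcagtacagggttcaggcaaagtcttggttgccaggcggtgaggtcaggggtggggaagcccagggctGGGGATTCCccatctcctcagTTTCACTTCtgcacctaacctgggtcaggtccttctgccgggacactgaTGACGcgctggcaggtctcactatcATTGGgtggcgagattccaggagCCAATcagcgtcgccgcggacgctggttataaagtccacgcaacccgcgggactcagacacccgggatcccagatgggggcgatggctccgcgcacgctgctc
H2-K1: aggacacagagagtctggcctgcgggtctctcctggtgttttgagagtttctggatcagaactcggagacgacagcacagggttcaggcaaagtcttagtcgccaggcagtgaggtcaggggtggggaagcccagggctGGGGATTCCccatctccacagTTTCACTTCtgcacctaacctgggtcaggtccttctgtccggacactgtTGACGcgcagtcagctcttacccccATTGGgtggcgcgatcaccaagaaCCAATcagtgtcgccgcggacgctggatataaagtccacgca
Tap1: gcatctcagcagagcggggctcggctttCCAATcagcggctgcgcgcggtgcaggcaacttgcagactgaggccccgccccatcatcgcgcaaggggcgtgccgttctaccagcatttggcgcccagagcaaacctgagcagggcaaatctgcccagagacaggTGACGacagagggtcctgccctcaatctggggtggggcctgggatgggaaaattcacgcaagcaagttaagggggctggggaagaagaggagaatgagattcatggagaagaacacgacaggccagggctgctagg
H2-Aa: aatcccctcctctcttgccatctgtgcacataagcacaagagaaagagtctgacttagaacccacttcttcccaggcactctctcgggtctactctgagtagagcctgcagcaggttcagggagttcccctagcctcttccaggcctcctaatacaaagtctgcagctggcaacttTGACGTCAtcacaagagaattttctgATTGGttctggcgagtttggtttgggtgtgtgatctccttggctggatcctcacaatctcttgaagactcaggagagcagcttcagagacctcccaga

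The kappa B motif GGGNATTCC occurred in H2-D1 and H2-K1, the pair of heavy chain genes, and in 0.759% of the 27025 promoters of the table. In both heavy chain promoters it lay 21 bases, start to start, before a match to GAANNGAAA, a motif that 7.56% of promoters hold and that was added after the promoters had been read. The longer interferon core occurred in B2m alone among the 5 and in 3.49% of promoters. TGACG and ATTGG were found in all 5, but they are short and occurred in 21.0% and 37.9% of promoters. Their arrangement was rarer: ATTGG began 25 bases after TGACG in B2m, H2-D1 and H2-K1 and 26 bases after it in H2-Aa. A pair spaced by 24 to 27 bases was present in 68 of the 27025 promoters, or 0.252%, a window chosen after the spacings had been seen. In H2-Aa the TGACG match overlaps a second one on the other strand, which gives the run TGACGTCA. A match of letters is a description and not evidence that a factor binds there.

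B2m, the light chain shared by all classical class I molecules, was the most abundant member. Its level was 1745, 1581, 1459 and 1477 CPM on plates 521, 522, 523 and 524, and 1566 CPM over all cells (95% counting interval 1563 to 1570.2). Every one of the 1187 cells had a B2m read after each cell was thinned to 100000 reads. B2m was also the steadiest member, with a coefficient of variation over cells of 0.279, and its highest plate stood 1.20-fold above its lowest.

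H2-D1, a classical heavy chain, stood at 1435, 1466, 1158 and 1154 CPM on the 4 plates, and 99.8% of cells had a read at the fixed depth. H2-K1, the other classical heavy chain, stood at 1391, 1320.5, 695 and 689 CPM, and 96.4% of cells had a read. The heavy chains were therefore near each other in reads on plates 521 and 522 and apart on plates 523 and 524. H2-K1 took 49.2%, 47.4%, 37.5% and 37.4% of the reads of the pair. Cells with almost no H2-K1 were also unevenly spread: 3, 7, 22 and 31 cells on the 4 plates were under 100 CPM, 63 cells in all, and 25 cells had no H2-K1 read at any depth. The median cell followed the same order, at 1406, 1325, 692 and 691 CPM.

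Tap1, the peptide transporter subunit, was low and patchy. Its level was 85.9, 157, 62.4 and 75.6 CPM, and 30.7% of cells had a read at the fixed depth (95% interval 28.1 to 33.4). Without thinning 406 cells had a Tap1 read, and the median among them was 221 CPM, so the plate values average over cells with and without a read. Plate 522 was the highest for Tap1, while plates 521 and 522 were both high for the heavy chains.

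Across plates the highest stood 1.27-fold above the lowest for H2-D1, 2.02-fold for H2-K1 and 2.51-fold for Tap1. Thus 2 of the 4 class I members reached the 1.5-fold mark, beside 42.1% of the 8240 genes at 20 CPM or more, a share near the members' own. All 4 class I members were higher on each of plates 521 and 522 than on each of plates 523 and 524, an order noticed after the values were seen and shared by 26.3% of those genes.

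**Figure D1:**
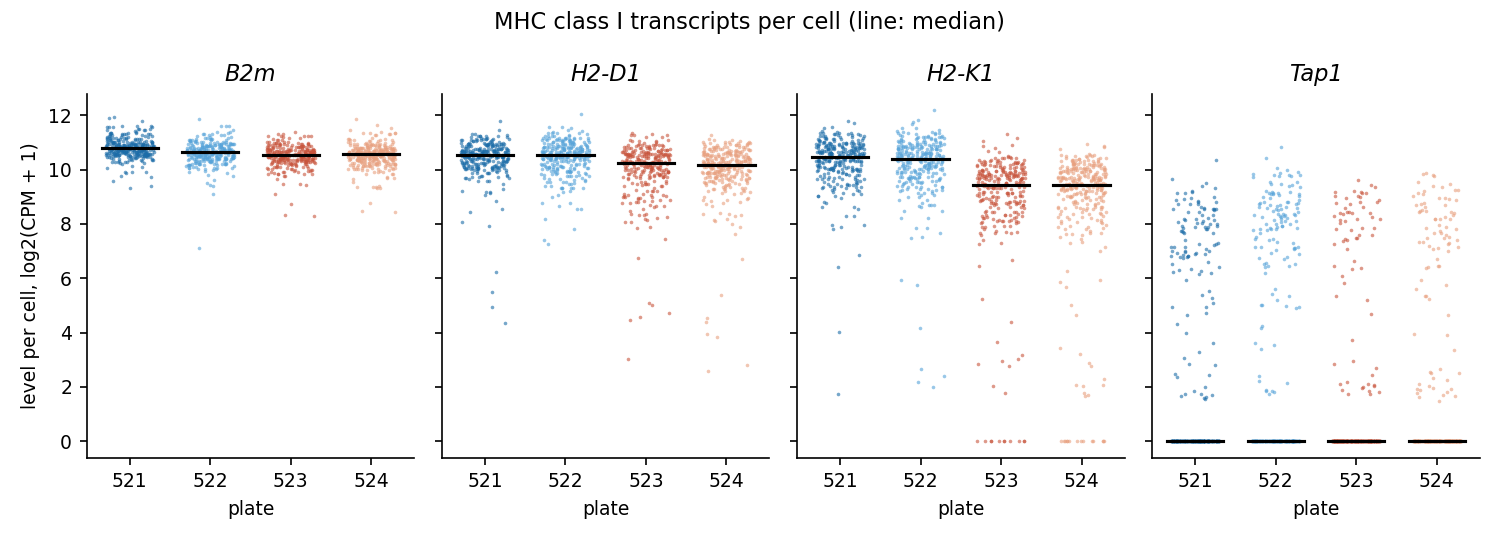
Level of each class I member in every cell, as log2(CPM + 1), by plate; each point is 1 cell and each line the plate median. B2m forms a narrow band on every plate, H2-K1 has a lower median and a tail of cells under 100 CPM on plates 523 and 524 (22 and 31 cells), and Tap1 splits into cells at 0 and cells with a read.

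Class II transcripts were rare and uneven between plates. Cd74, the invariant chain, stood at 41.3, 24.4, 0.807 and 0.284 CPM on plates 521, 522, 523 and 524. H2-Aa, the alpha chain, stood at 11.5 and 11.4 CPM on plates 521 and 522 and had 0 reads on plates 523 and 524. H2-Ab1, the beta chain, stood at 16.2, 18.0, 0.418 and 0 CPM. At the fixed depth 51 cells had a Cd74 read, 40 an H2-Ab1 read and 22 an H2-Aa read, which is 4.30%, 3.37% and 1.85% of all cells.

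Per kilobase of annotated exon, the only scale on which levels of different genes can be set side by side, the order over all cells was B2m at 1821 CPM, H2-D1 at 505, H2-K1 at 347, Tap1 at 17.2, Cd74 at 9.94, H2-Ab1 at 3.32 and H2-Aa at 1.49 CPM. Each plate spread overlaps that of the next gene for H2-D1 and H2-K1, for Tap1 and Cd74, and for the class II genes among themselves.

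The rest of the pathway was followed in lists of genes named for their roles. Among other class I heavy chains and relatives, 7 of the 9 genes at 20 CPM or more reached the 1.5-fold mark between plates, beside the 42.1% of all genes. H2-Q6 stood at 342, 188, 33.0 and 44.7 CPM and H2-Q7 at 287, 166, 43.3 and 39.2 CPM, while Fcgrt, the neonatal Fc receptor that recycles antibody and albumin, ran the other way at 264, 349, 649 and 599 CPM. H2-T23, the mouse heavy chain that shows leader peptides to natural killer cells, also ran the other way, at 108, 159, 162 and 193 CPM. Reads of class I heavy chain genes resemble each other and no source used here says how reads matching several genes were counted, so the split of reads among H2-K1, H2-D1 and the H2-Q genes is uncertain.

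Genes of peptide loading and cutting varied less. Of the 7 peptide loading genes, Tap2, the partner subunit of Tap1, and Tapbpl, a peptide editor, reached 1.5-fold, with Tap2 at 165, 219, 171 and 126 CPM. Tapbp, the tapasin that bridges class I and the transporter, stood at 495, 525, 425 and 388 CPM. None of the 5 immunoproteasome and PA28 genes reached it, beside the same 42.1%. All 5 were highest on plate 522, but the share of all genes highest there was not computed, so nothing is drawn from that order. Psmb8, a catalytic subunit, stood at 238, 258, 198 and 173 CPM.

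Of the 8 regulators of MHC transcription at 20 CPM or more, 3 reached the mark. Nlrc5, the activator of class I genes, stood at 29.4, 51.9, 30.6 and 29.9 CPM, highest on plate 522 as Tap1 was. Ciita, the activator of class II genes, was below the filter at 6.75, 3.72, 0.428 and 0.569 CPM. Among interferon receptors 1 of 4 reached it, among interferon-stimulated genes 5 of 13, and of the co-stimulation genes both Cd40 and Cd274 did. The shares among regulators, interferon receptors and interferon-stimulated genes were near or below the 42.1% of all genes.

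**Figure D2:**
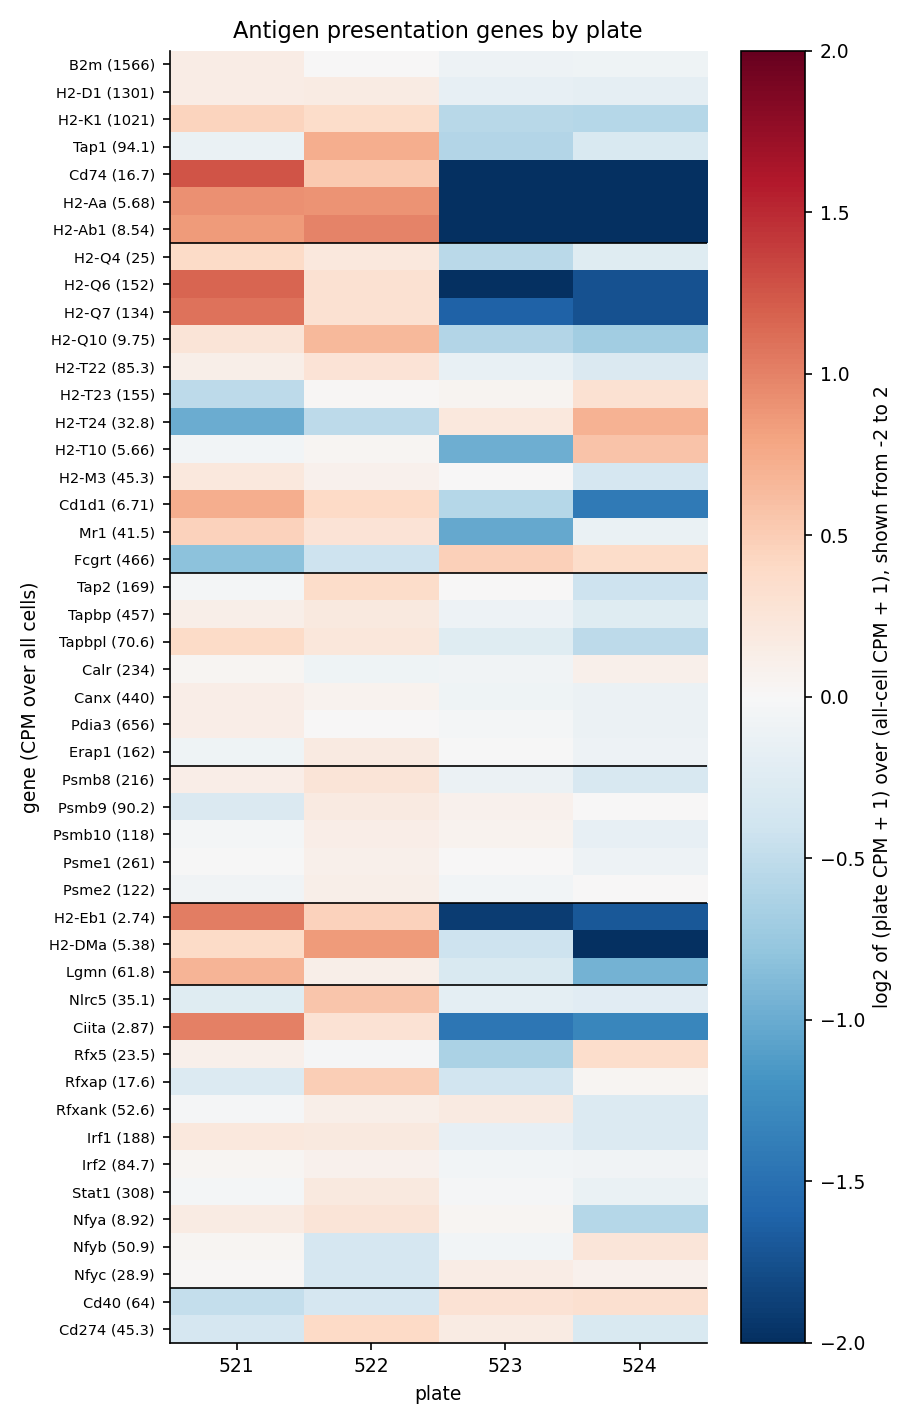
Level of each pathway gene on each plate relative to its level over all cells, as a log2 ratio of CPM + 1 in colour that ends at -2 and 2; the number beside a gene is its CPM over all cells. The class II members and Ciita are low on plates 523 and 524, H2-Q6 and H2-Q7 are high on plates 521 and 522, Fcgrt is high on plates 523 and 524, and the immunoproteasome genes are close to even.

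A class II cell was defined as one with a read of at least 2 of Cd74, H2-Aa and H2-Ab1 at 100000 reads. There were 26 such cells, 18 on plate 521, 8 on plate 522 and 0 on plates 523 and 524, which is 2.19% of all cells (95% interval 1.44 to 3.19). For plates 523 and 524 a count of 0 allows a share of up to 1.29% and 1.18% by the exact interval. Taken as 3 counts of the total, the limits are 1.05% and 0.962%. Another 52 cells had a read of 1 of the genes and 9 cells had reads of all 3. The 78 cells with any class II gene fell 52, 21, 4 and 1 on the plates.

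The genes were found together in part. Of the 22 cells with H2-Aa, 14 also had Cd74 (63.6%), as 27.5% of the 51 Cd74 cells had H2-Aa. Cd74 and H2-Ab1 shared 19 cells, 37.3% of the first and 47.5% of the second, and H2-Aa and H2-Ab1 shared 11 cells, 50% of the first and 27.5% of the second. At the edge of the rule, cells with 1 class II gene had a median of 14 class II reads in the thinned counts (range 1 to 100), and cells with 2 genes a median of 58 (range 4 to 176).

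In the 26 class II cells Cd74 ranged from 0 to 2986 CPM with a median of 323, H2-Ab1 from 0 to 1536 with a median of 193 and H2-Aa from 0 to 1604 with a median of 124. Their median depth was 368084 reads on plate 521, against 365218 in cells of that plate with no class II gene, and 310879 against 350832 reads on plate 522. They had a median of 5648.5 genes with a read against 5063.5 on plate 521, and of 4930.5 against 4561 on plate 522. The part of depth and of the number of genes in the results below was not tested.

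**Figure D3:**
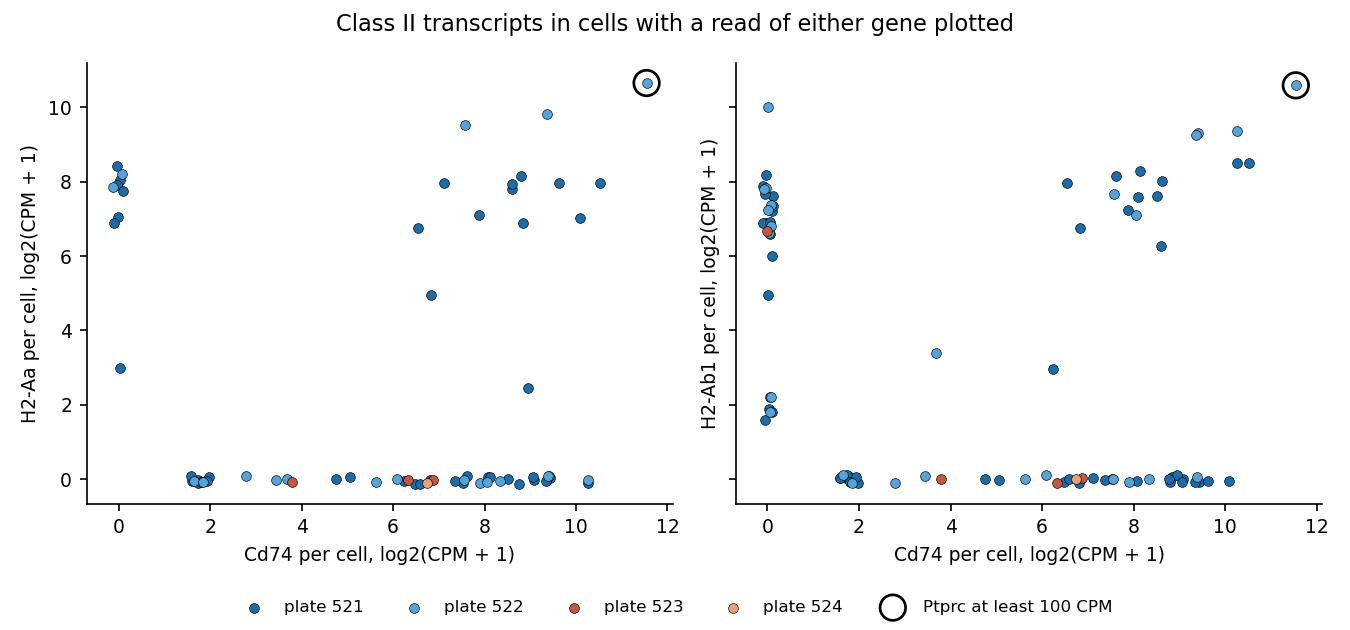
Cd74 against H2-Aa (left) and against H2-Ab1 (right) in each cell with a read of either, as log2(CPM + 1); points at 0 are spread slightly so that they can be told apart, and colour gives the plate. Most points are from plates 521 and 522, many lie on an axis because 1 gene had no read, and the circled cell, with Ptprc at 658 CPM, is the highest for both pairs.

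Ptprc was read at the fixed depth in 2 of the 26 class II cells, 7.69% (95% interval 0.946 to 25.1), and in 15 of the 1161 other cells, 1.29% (0.725 to 2.12). It was read in 0 of the 52 cells with 1 class II gene, which allows up to 6.85% by the exact interval. Conversely, 5 cells with Ptprc at 100 CPM or more had no class II gene.

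One of the pair, on plate 522, carried most of the leukocyte signal. It held 658 CPM of Ptprc, 2663 CPM of Ccr7, the chemokine receptor that guides lymphocytes and dendritic cells to lymph nodes, 555 CPM of Coro1a, an actin regulator of leukocytes, and 114 CPM of Cd79a, a subunit of the B cell receptor. It also held the highest class II sum, 6126 CPM, together with 4208 CPM of Cldn5 and 4118 CPM of Flt1, so leukocyte and endothelial transcripts were in 1 well. No doublet caller was run. In the other 25 class II cells the 14 leukocyte markers summed to a median of 0 and at most 197 CPM. The 1161 cells that are not class II cells also had a median of 0, with at most 1422 CPM. In those 25 class II cells Ptprc had 2 reads in all and Cldn5 was at least 3646 CPM.

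That cell mattered for plate 522. Without it, Cd74 there was 13.3 rather than 24.4 CPM, H2-Aa 5.45 rather than 11.4 and H2-Ab1 12.3 rather than 18.0 CPM, and plate 521 did not contain it. Markers of microglia and macrophages were scarce in class II cells: none of the 26 had 3 of the 14 markers at 100 CPM, the summed level ran from 0 to 1147 CPM with a median of 14.7, and C1qc, Tyrobp, Fcer1g, Mrc1 and Pf4 had 0 reads. In the 1161 other cells the sum ran from 0 to 13633 CPM with a median of 2.53, and 11 had 3 such markers. Summed pericyte markers were at most 595 CPM in class II cells and 5065 CPM in other cells. The list of astrocyte, neuron and oligodendrocyte genes was at most 350.01 and 3226 CPM. Cspg4, whose reporter the sort excluded, made up 17.1 of the 18.5 CPM of pericyte markers in the summed class II cells. Cspg4 was read in 4 of the 26, at 2.89 CPM against 8.27 in other cells on plate 521 and 56.1 against 7.89 on plate 522.

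All 4 class I members had higher levels in the summed class II cells, least for B2m and most for Tap1. B2m stood at 1940.2 CPM in the summed class II cells against 1558 in the other cells, H2-D1 at 1753 against 1291, H2-K1 at 1918 against 1001 and Tap1 at 195 against 91.9 CPM. As log2 ratios, with a prior of 1 CPM on each side, these were 0.32, 0.44, 0.94 and 1.08. Since class II cells came from plates 521 and 522 alone, the other cells were also weighted to the same plate mix, which gave 0.20, 0.30, 0.51 and 0.94. Before that weighting 1 of the 4, Tap1, was at least 2-fold higher and 0 were 2-fold lower, beside 8.35% and 11.6% of 8936 genes. After it 0 of the 4 were 2-fold higher, beside 7.53% of 8925 genes. With the 2 cells carrying Ptprc left out, Tap1 came to 1.06, so 1 of the 4 passed, beside 656 of the 8925 genes.

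Within plates the direction was the same for each gene. On plate 521 the log2 ratios were 0.17 for B2m, 0.26 for H2-D1, 0.43 for H2-K1 and 0.72 for Tap1, and on plate 522 they were 0.29, 0.38, 0.73 and 1.22. Yet cells overlapped widely. On plate 521 the sum of class I members ran from 3935 to 7795 CPM (median 5811) in the 18 class II cells and from 1420.5 to 9248 (median 4636) in the 248 cells with no class II gene, so every class II cell lay inside the range of the others. On plate 522 it ran from 3664 to 11835 (median 6744) in 8 cells and from 545 to 9449 (median 4299) in 269 cells. The medians were higher in class II cells on both plates, and on plate 522 the highest class II cell lay above the range of the others. Without thinning, Tap1 was read in 55.6% of class II cells against 37.9% of cells with no class II gene on plate 521, and in 87.5% against 43.9% on plate 522.

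**Figure D4:**
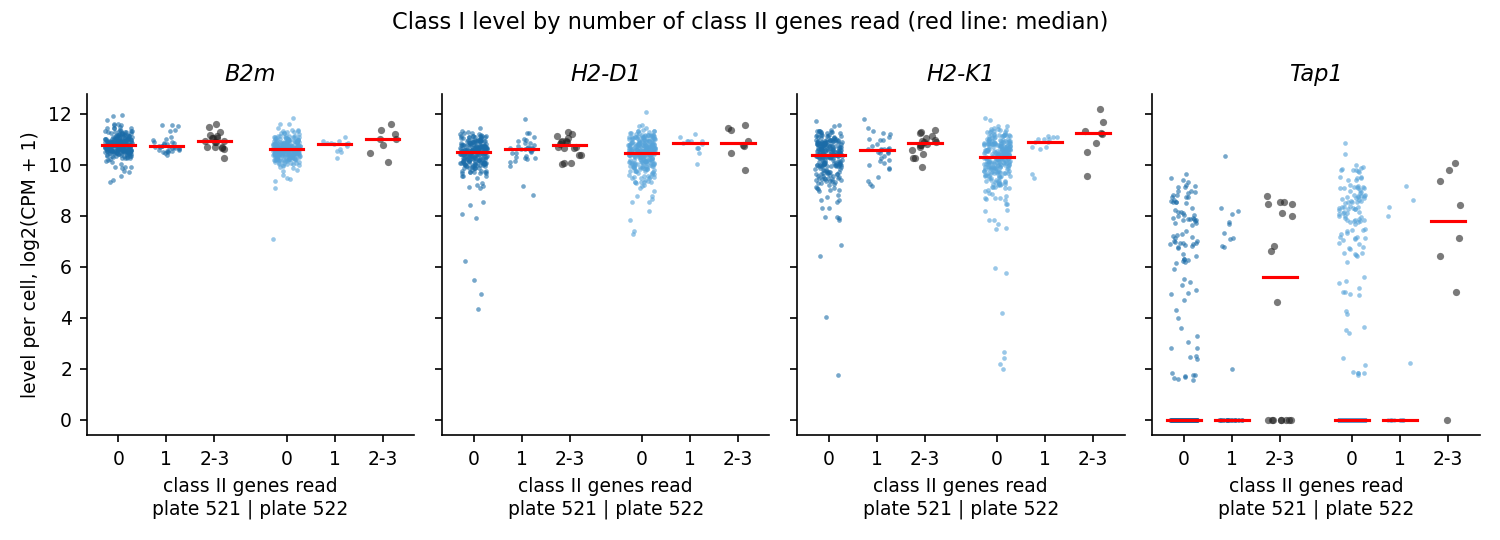
Class I members in cells of plates 521 and 522 with no class II gene, with 1 and with 2 or 3, as log2(CPM + 1); each point is 1 cell and each line a median. The class II cells lie largely within the range of the other cells; 1 on plate 522 is above it for H2-K1 at 4667 CPM, and 8 on plate 521 and 1 on plate 522 have no Tap1 read. They have H2-K1 medians of 1838 and 2416 CPM against 1342 and 1257 in cells with no class II gene.

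Other genes of the pathway showed where class II cells stood apart most, all as log2 ratios to plate-matched other cells. Ciita was at 4.63 and had a read in 8 of the 26 cells, H2-Eb1, a further class II beta chain, was at 4.50 in 10 cells, and H2-DMb1 and H2-DMa, the chaperone that loads class II peptides, were at 4.28 and 3.96. Because these cells were picked by class II reads, their class II partners describe the pick. Ciita, H2-Eb1, H2-DMa and H2-DMb1 stood at 2.29, 2.40, 4.59 and 1.21 CPM in the plate-matched other cells. They so passed the 20 CPM filter through the class II cells, which fixes their direction. H2-Ob, at 3.49, was read in 1 class II cell, one of those with Ptprc, and had 0 reads in the others. Of 10 other class I genes 0 passed 2-fold, although H2-Q6 and H2-Q7 reached 0.96 and 0.93. Without the Ptprc cells 3 passed, beside 656 of 8925 genes. Of the 7 peptide loading and 5 immunoproteasome genes 0 passed. Of 9 regulators 2 were over 2-fold higher, Ciita, whose direction the filter fixed, and Nlrc5, at 1.60. Only 1 was lower, Nfyc, a subunit of the factor that binds the Y box, at -1.11. Nfyc stood at 12.8 CPM in class II cells against 28.7 CPM, so it passed the filter through the other cells, which fixes its direction. Nfyc was at -1.84 on plate 521 and 0.21 on plate 522. The co-stimulation gene Cd40 was at 1.08, with 1.25 on plate 521 and 0.62 on plate 522. The checkpoint ligand Cd274 was at 1.33, with 0.48 on plate 521 and 2.15 on plate 522. Cd80 and Cd86, the co-stimulators of professional presenting cells, had 0 reads in class II cells and only 0.020 and 0.10 CPM in plate-matched other cells, too few to set them apart. Interferon-stimulated genes gave a median of -0.04 over 13 genes with 0 higher and 1 lower, that 1 being Irf7 at -1.06 (-0.49 on plate 521 and -5.71 on plate 522), beside 7.53% higher and 10.8% lower over all genes. Without the Ptprc cells 1 of the 13 was higher, Igtp, an interferon-induced GTPase, at 1.06, beside 656 of 8925 genes.

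Beyond the pathway, the genes with the largest ratio before plate matching also included Mir5107, whose annotated locus lies inside Cd74, so that the reads may be the same. They further included Kirrel, an adhesion protein of the immunoglobulin family, Cd27, a receptor of the tumour necrosis factor family, Bgn, the matrix proteoglycan biglycan, Timp2, an inhibitor of matrix proteases, and F830016B08Rik. They were ranked on this ratio and kept for their level and detection in class II cells, so that their high values follow from the choice. With plates matched, Kirrel stood at 2.12, Cd27 at 1.59, Bgn at 1.29, Timp2 at 1.59 and F830016B08Rik at 2.09 on the log2 scale. Cd27 was 1.75 on plate 521 and -0.14 on plate 522, so its ratio came from plate 521.

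Brain vessels change along their length from artery to capillary to vein, and members were compared along that axis with scores of marker genes. In each plate the 10% of cells with the highest summed CPM of a marker list, 118 cells in all, were set against the remaining 1069. Cells with high venous scores, from genes such as Vwf, Nr2f2 and Vcam1, had more of every member over all plates: the log2 ratio was 0.15 for B2m, 0.31 for H2-D1, 0.49 for H2-K1, 0.58 for Tap1, 1.54 for Cd74, 2.27 for H2-Aa and 1.05 for H2-Ab1. H2-K1 was higher on each plate, between 0.42 and 0.58, and Tap1 was not on plate 521, at -0.09. H2-Aa had no reads on plates 523 and 524 and H2-Ab1 had none on plate 524, so they gave 0 there. Cd74 was read in only 3 and 1 cells on plates 523 and 524. The venous score sums CPM, so Vwf and Slc38a5 weighed most in it, at 833 and 406 CPM of the list's 1626. Nr2f2 stood at 17.7 CPM. Vcam1 and Icam1 of this list are themselves induced by inflammation.

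Cells with high capillary scores, from genes such as Mfsd2a and Tfrc, showed the reverse over all plates, though not for every member on each plate. Their H2-D1 was 1033 against 1330.2 CPM, a log2 ratio of -0.36, and their H2-K1 was 773 against 1048 CPM, or -0.44, and each plate gave a negative value for both. Cd74 had 0 reads in these 118 cells and H2-Ab1 stood at 0.0245 CPM. B2m was at -0.08, Tap1 at -0.21 and H2-Aa at -0.70. Tap1 was positive on plates 523 and 524, at 0.37 and 0.27, B2m on plate 524, at 0.01, and H2-Aa on plate 521, at 0.06. With high arterial scores H2-D1 was at 0.23, while H2-K1 was negative on plates 521 and 522 and positive on plates 523 and 524, between -0.26 and 0.47. With high angiogenic scores Cd74 was at 0.141 CPM against 18.6.

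Of the 26 class II cells, 8 lay in the highest 10% by venous score, 1 by arterial, 0 by capillary and 1 by angiogenic score, and 18, 17, 10 and 7 were above their plate's median for the venous, arterial, capillary and angiogenic scores. With plates matched, 3 of 8 venous markers were at least 2-fold higher in class II cells. They were Slc38a5, an amino acid transporter, at 1.26, Vcam1 at 1.22 and Ackr1 at 1.32 on the log2 scale. Vwf was at 0.43, Nr2f2 at 0.24 and Icam1 at 0.06. Ackr1, at 20.3 CPM against 7.49 CPM in plate-matched other cells, passed the 20 CPM filter through the class II cells, which fixes its direction. Ackr1 was read in 3 class II cells and was at -3.18 on plate 521 and 3.48 on plate 522. Of 8 capillary markers 2 were lower, with the lipid transporter Mfsd2a at -1.22 but Cxcl12 at -0.09 and Slc22a8 at 0.20. Of 11 arterial markers 5 were lower, Gja4, Mgp, Fbln5, Stmn2 and Alpl. All 5 were under 20 CPM in class II cells and passed through the other cells, which fixes their direction. Of 5 angiogenic markers 4 were lower, Apln at -1.58, Trp53i11 at -2.06, Nid2 at -2.21 and Mcam at -4.84. Mcam, with 0 reads in class II cells, also passed through the other cells alone. Angpt2 was at -0.80. Apln and Angpt2 were at -2.99 and -1.41 on plate 521 but at 0.44 and 0.63 on plate 522. Over all genes 7.53% were higher and 10.8% lower. Cells above a cut in a score are a range of cells and not a type.

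**Figure D5:**
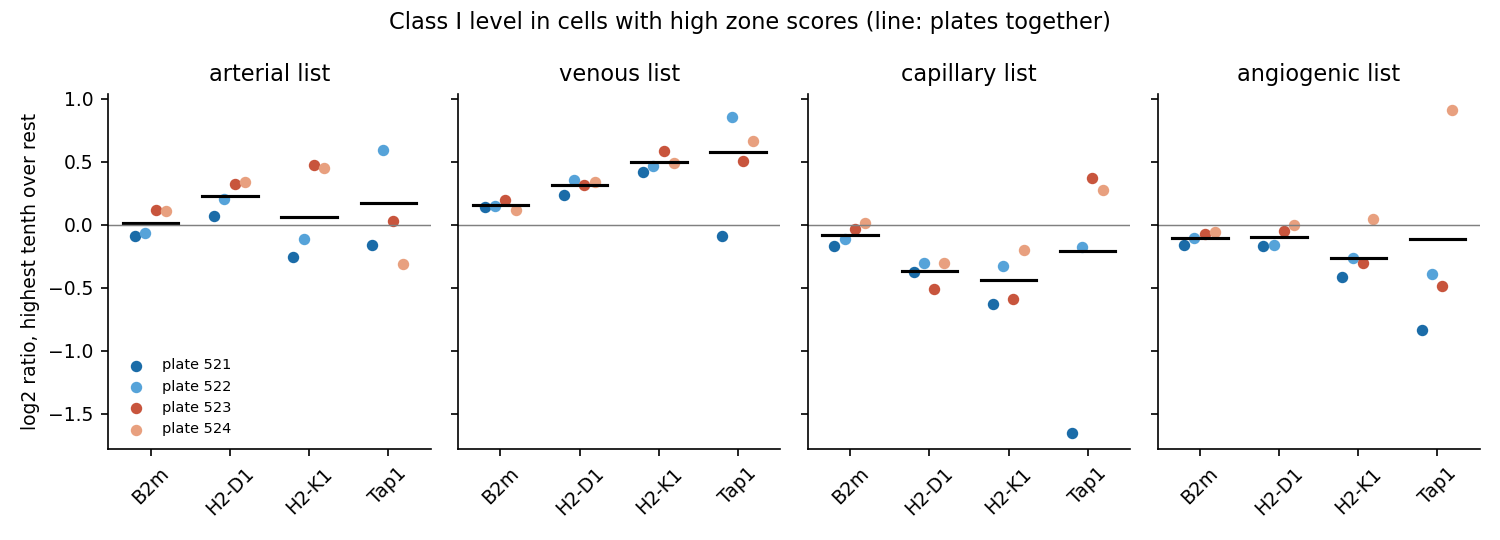
Log2 ratio of each class I member's CPM in the 10% of cells with the highest zone score to that in the remaining cells; points are plates and lines the plates together. All 4 lines are above 0 for the venous score, with Tap1 on plate 521 below it at -0.09, and H2-D1 and H2-K1 are below 0 for the capillary score on each plate.

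Within plates the class I members varied together over cells, as a description over 1187 cells that share library depth and composition. The mean Spearman rho over the 4 plates was 0.55 for H2-D1 with H2-K1 (range 0.42 to 0.68), 0.44 for B2m with H2-D1 and 0.44 for B2m with H2-K1. Pairs with Tap1 were between 0.08 and 0.12, and since most cells had no Tap1 read nothing is drawn from them.

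The genes whose levels ran most like the class I sum were C920025E04Rik at 0.67, Gm7030 at 0.64, H2-Q7 at 0.48, H2-Bl, H2-K2 and H2-Q1 at 0.46 each, Gm8909 at 0.44, Ifitm3 at 0.41, H2-Q4 at 0.41 and H2-Q6 at 0.37. The H2 genes in this list are relatives of the class I members that may share reads with them, and for C920025E04Rik, Gm7030 and Gm8909 shared reads were not checked either, so the likeness of these 9 genes is uncertain. Ifitm3 encodes an interferon-induced antiviral membrane protein outside the MHC. Over 10000 genes the median rho with the class I sum was 0.014 and the range from the 5th to the 95th percentile was -0.049 to 0.080. Among the lists the immunoproteasome genes ran from 0.11 to 0.27 with Psmb8 highest, peptide loading genes from 0.084 to 0.24 with Tapbp highest, and all 8 capillary genes from -0.21 to -0.11. The class I sum itself had a rho of -0.22 with the reads of a cell and 0.073 with its genes.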

How the data were processed

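The authors deposited raw read counts per gene, as whole numbers, made from single-cell Smart-seq2 libraries without molecular identifiers. The submitters' processing notes list Subread 1.4.6-p5, featureCounts, TopHat2 2.1.1 and SAMtools 0.1.18, and name GRCm38 and mm10 as builds. Strand handling and the counting of reads matching several genes are not given in the sources used here. Its 1187 columns carry plate and well and could not be tied to labelled cells, so the planned comparison of genotypes was not made. The members and gene lists were chosen with earlier results of these data known.

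CPM were computed here from counts summed over cells, with exact Poisson intervals at 95%. For shares, each cell was thinned to 100000 reads, with Clopper-Pearson intervals. Beside 0 of a plate's cells, a limit of 3 counts of the total is also given. Reads are not independent molecules, so intervals cover counting error only. Log2 ratios carry a prior of 1 CPM. Genes entered a background at 20 CPM or more, over all cells or in either set of cells. Exon lengths are from GENCODE M21 (GRCm38). The named genes were the 7 members, genes of the lists, the 10 most like the class I sum (a read in at least 10% of cells, positive on each plate) and the 10 highest in class II cells (20 CPM, a read in at least 30% of class II cells). Computations used Python 3.11.15, numpy 2.4.6, pandas 2.3.3, scipy 1.17.1 and edgeR 4.0.16 for plate scaling factors, and were tested on simulated data. Alternatives covered scaling, depth, the class II rule, plates left out, correlation and filters.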

Additional observations from a re-analysis of the deposited data

How the results depend on the processing

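Of 374 alternative values 339 stayed within the spread used for them, 33 moved further and 2 turned the sign of a ratio past 1.5-fold. Another 10 changed the sign of a zone ratio no larger than 0.21 on the log2 scale, those of B2m, H2-K1, Tap1 and H2-Ab1 with the arterial score and of Tap1 with the capillary and angiogenic scores; the spread was the SD over plates, the exact interval for shares, and 1.5 times for counts and plate ranges. The number of class II cells was 78 with any of the genes and 9 with all 3, and Ptprc was then read in 1 of those 9. The class II ratios (log2) depended on the rule, the averaging and the plates. With any gene B2m was 0.21 and Tap1 0.54; with all 3 genes H2-D1 was 0.23. With the mean of log2(CPM + 1) H2-D1 was 0.62, H2-K1 1.47 and Tap1 2.81. With the other cells weighted to the plate mix, added after seeing the data, B2m was 0.20, H2-D1 0.30 and H2-K1 0.51. Leaving out plates in turn gave 0.29 to 0.35 for B2m, 0.39 to 0.60 for H2-D1, 0.78 to 1.29 for H2-K1 and 0.89 to 1.89 for Tap1, the highest for each of the 4 without plate 521. The correlation of H2-D1 and H2-K1 was 0.39 by Pearson, and that of H2-K1 and Tap1 was 0.18 with plates pooled. Arterial Cd74, -1.40 over all plates, was 0.031 without plate 521, with a range of -2.84 to 0.031. Capillary H2-Aa, -0.70 over all plates, was 0.12 without plate 522, with a range of -2.33 to 0.12. The cause of these shifts was not tested. Without plate 521 the share of cells with Cd74 fell to 1.92%, with H2-Aa to 0.564% and with H2-Ab1 to 1.69%, and the level of Cd74 over all cells was 8.12 CPM. No paired analysis was possible because no column could be tied to a labelled sample and the labels name no animal. Depth limits Tap1 and the class II genes most: a cell without a read at 100000 reads is not shown to lack the transcript.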
